A study of Mus musculus with 138 samples.

Results

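Small leucine-rich proteoglycans (SLRPs) are secreted matrix proteins in which a core of leucine-rich repeats carries, in most members, sulfated sugar chains. The 10 genes described here were taken by name, Dcn, Bgn, Lum, Fmod, Ogn, Omd, Aspn, Prelp, Kera and Podn, out of 55487 genes in the deposited count tables, and all 10 passed the filter on low counts. They were followed in the sutures of the mouse skull vault, the fibrous joints in which bone grows at the edges of the flat bones.

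The samples were suture mesenchyme (SM) and osteogenic fronts (OFs) cut by laser capture from untreated wild-type C57BL/6J embryos, so no allele or agent separated the groups. The coronal, frontal, lambdoid and sagittal sutures were sampled at E16.5 and E18.5, with a frontal bone (FR), parietal bone (PA) or interparietal bone (IP) front as each suture has them. The first libraries made 20 groups of 5, 100 libraries of 40 embryos in 17 litters, and the SM and OFs of 1 embryo were compared with each other. A comparison within an embryo pairs its SM with 1 front, so coronal and lambdoid SM libraries enter once for each front. The 60 comparisons thus come from 40 embryos. The 20 coronal ones rest on 10 SM libraries and the 40 others on 30. No litter gave embryos of both ages, so age and litter cannot be told apart. Most litters gave embryos to 1 suture only, and the levels of different sutures were not tested against each other. Laser-captured strips are mixtures, in which fewer cells of a type and less RNA per cell cannot be told apart. A further 4 droplet libraries of whole coronal sutures, each from pooled embryos, gave single cells.

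Decorin (Dcn) and biglycan (Bgn) carry chondroitin or dermatan sulfate. Lumican (Lum), fibromodulin (Fmod), keratocan (Kera), osteomodulin (Omd) and osteoglycin (Ogn) are known from their keratan sulfate forms, and asporin (Aspn), PRELP (Prelp) and podocan (Podn) are further members with few or no such chains. Many bind fibrillar collagen and set the width and spacing of its fibrils, and several bind growth factors of the TGF-beta and BMP families. Omd, also called osteoadherin, is a protein of mineralized bone matrix.

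Total counts were 20133332 to 34518477 in the coronal libraries and 7305627 to 18450955 in the others. Mitochondrial genes took 12.8% to 52.4% of the counts. The labels were checked against marker genes of each tissue. The summed level of 13 osteoblast markers was higher in the OF in 20 of 20 coronal comparisons within an embryo and in 34 of 40 in the other sutures. The summed level of 12 SM markers was higher in SM in 20 and 38 of these. The paper reports some of these markers, among them Adamts8, Cd34 and Erg, as enriched in SM from bulk data of the same sutures. The SM sum is therefore not an independent check of the labels. It also covers genes that went the other way, since Hhip and Gli1 were lower in SM when averaged over sutures and ages. For Hhip this average hides a difference between sutures that the paper reports: enrichment in SM in the coronal suture and in the OFs elsewhere.

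The genes lie in small clusters. On mm10, Aspn (chr13:49544443-49567565), Omd (chr13:49582462-49592822) and Ogn (chr13:49608046-49624501) follow one another on the plus strand, 14896 and 15223 bases apart, with no other gene between their ends. All 3 lie within the span of Cenpp on the minus strand, and Aspn shares 7 exonic bases with it. Dcn (chr10:97479609-97518143), Lum (chr10:97565128-97572703) and Kera (chr10:97606879-97613692) form a second row on the plus strand. Prelp (chr1:133910304-133921414, minus strand) and Fmod (chr1:134037254-134048277, plus strand) lie 115839 bases apart. Bgn (chrX:73483602-73495933, plus strand) and Podn (chr4:108014791-108096445, minus strand) stand alone. Counting ignored strand, so reads of the 350 exonic bases that Prelp shares with Gm15851 could not be split between the genes.

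The Aspn, Omd and Ogn promoters are printed because these neighbours gave the clearest contrast among the members: Omd was higher in the OFs in every suture, while the genes on both sides of it were higher in SM. Each line gives the 250 bases before the start of the RefSeq transcript, 5′ to 3′, from the GRCm38.p6 windows chr13:49544193-49544442, chr13:49582212-49582461 and chr13:49607765-49608014, all on the plus strand. Capitals mark the letters of 3 motifs searched on both strands, ACCACA (RUNX core), GGAATG (TEAD) and CTTTGA (TCF/LEF, which reads TCAAAG on the minus strand).
Aspn: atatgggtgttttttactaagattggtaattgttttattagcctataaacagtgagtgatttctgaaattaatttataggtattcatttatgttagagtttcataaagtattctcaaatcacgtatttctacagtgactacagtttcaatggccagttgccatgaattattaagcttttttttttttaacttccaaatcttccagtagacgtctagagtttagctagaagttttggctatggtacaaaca
Omd: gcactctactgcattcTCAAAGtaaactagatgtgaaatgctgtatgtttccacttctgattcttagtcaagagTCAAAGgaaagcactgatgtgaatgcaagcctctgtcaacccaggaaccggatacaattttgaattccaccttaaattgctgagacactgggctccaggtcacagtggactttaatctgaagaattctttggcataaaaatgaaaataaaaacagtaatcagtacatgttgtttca
Ogn: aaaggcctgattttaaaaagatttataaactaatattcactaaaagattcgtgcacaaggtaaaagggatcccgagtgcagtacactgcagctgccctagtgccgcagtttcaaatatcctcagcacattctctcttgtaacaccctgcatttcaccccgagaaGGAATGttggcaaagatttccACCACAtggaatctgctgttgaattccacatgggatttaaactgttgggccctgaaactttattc
The Omd window held 2 TCF/LEF matches, 234 and 176 bases before the start. In the Ogn window a RUNX core match lay 65 bases and a TEAD match 86 bases before it, and none of the letters searched occurred in the Aspn window. Of 32851 mouse promoter windows of the same length, 14% held the RUNX core, 12.6% the TEAD and 13.8% the TCF/LEF letters, so a match in a single window is common. Windows were at hand for 8 of 10 members. Among the other 5 the only match was a TCF/LEF match in the Bgn window, 146 bases before the start.

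The first question was how abundant each member was. Between genes, levels were compared as CPM (counts scaled to a fixed library total, with TMM factors) per kilobase of exon. By their median over the 100 libraries, Bgn (338 CPM per kb), Lum (267) and Aspn (135) led, followed by Ogn (62.7), Fmod (37.8) and Dcn (32.7), and then by Podn (10.6), Omd (10.4) and Prelp (10.2). Kera, best known from the cornea, was close to absent at 0.0620 CPM per kb and had no count in 41 libraries. Bgn was first in 12 and second in 8 of the 20 groups and Lum was first in the other 8. In 9 groups the first and second gene differed by less than the larger of their SDs. Dcn and Omd moved most in this order, over 5 places each. Dcn stood between the third and the eighth place, and Omd between the fifth in a coronal group and the tenth in the SM of the lambdoid suture. Together the 10 genes took 0.148% to 1.10% of the counts of a library.

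**Figure D1:**
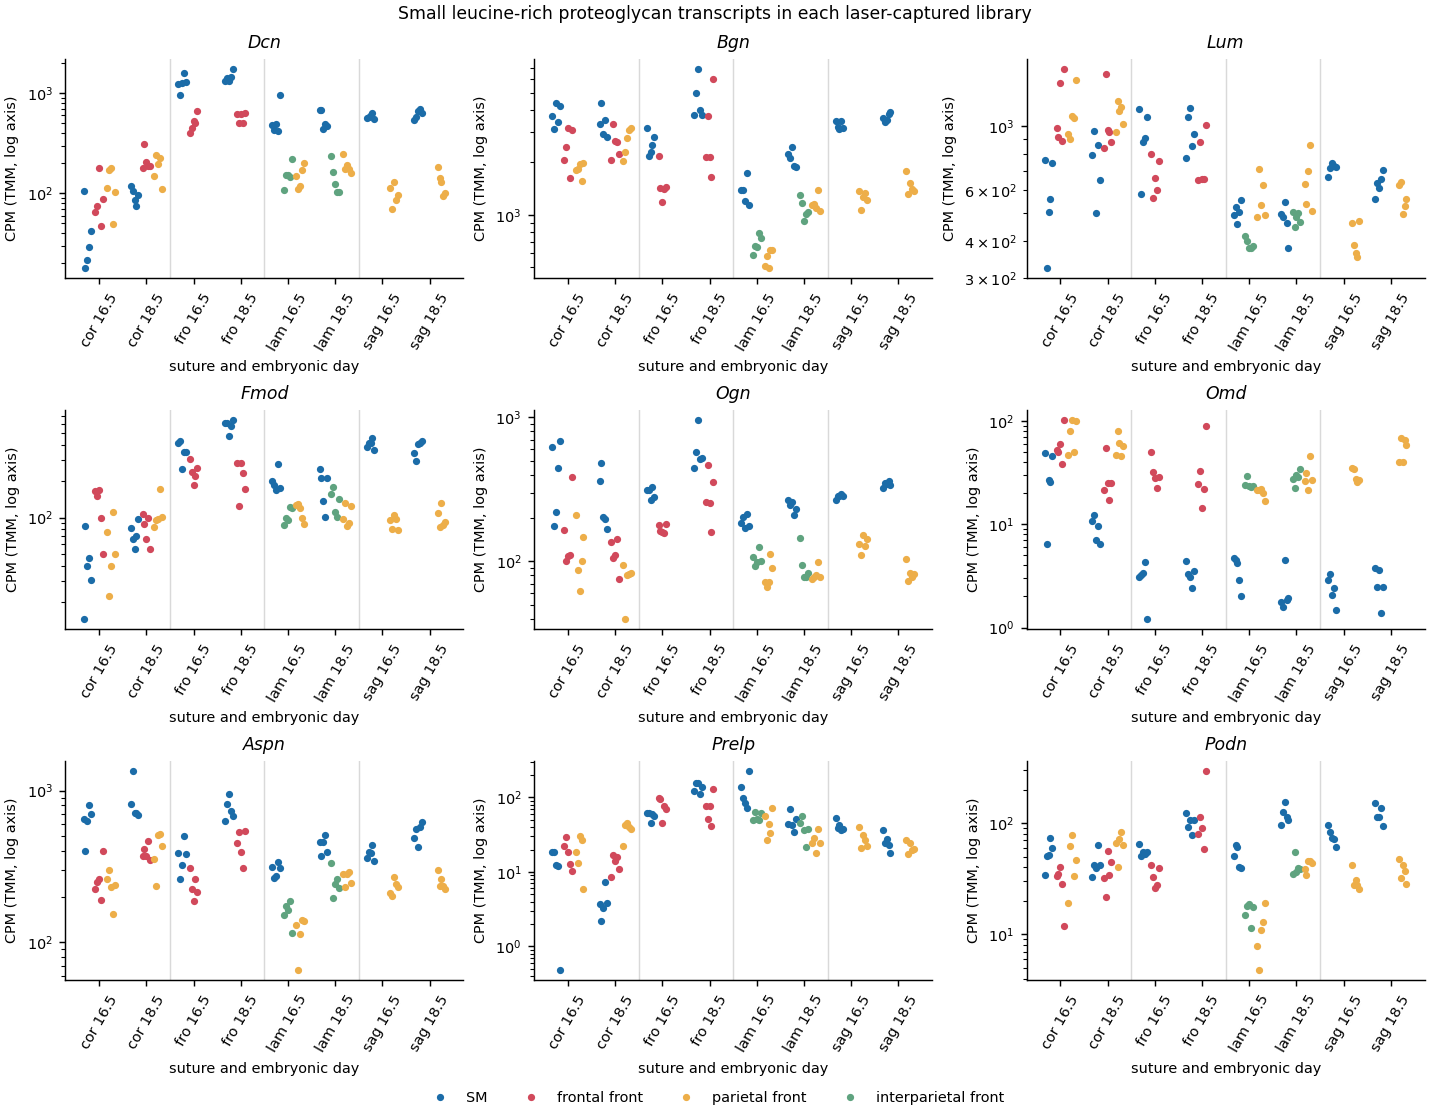
Level of 9 SLRP genes in each library (CPM, log axis, 1 panel per gene, Kera left out for its zeros), by suture, age and region. Points are libraries and grey lines separate the sutures. Dcn sat at 17.9 to 118 in coronal SM and at 424 to 1748 in the SM of the other sutures.

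Within a gene, levels are given in CPM. In SM, Bgn ran from 1146 to 6890 CPM over the 40 libraries (median 3184), Lum from 324 to 1149 (661) and Aspn from 260 to 1349 (472). In the 60 OF libraries, Bgn ran from 494 to 6027 (1419), Lum from 353 to 1566 (653) and Aspn from 65.8 to 543 (244). Lum thus had nearly the same median in both regions, while the medians of Bgn and Aspn were higher in SM. Omd had the widest separation, with 1.21 to 49.3 CPM in SM (median 3.32) against 14.2 to 102 in the OFs (30.5). All 10 coronal SM libraries (6.45 to 49.3 CPM) lay above all SM libraries of the other sutures (1.21 to 4.73 CPM).

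The main comparison asked which members differed between SM and the OFs of the same embryos. Averaged over sutures and ages, 7 of 10 members were higher in SM, 1 was lower and 2 did not pass (edgeR quasi-likelihood test, embryo as a block, Benjamini-Hochberg adjusted p under 0.05). The same test called 54.9% of all 19768 genes tested, 27.5% higher in SM and 27.4% lower, so a call by itself was common in these data. The median log2 difference was 0.94 over the members and 0.05 over all genes tested.

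Apart from the sparse Kera, Ogn, which is made by many connective tissues, was the furthest above the OFs, with a log2 difference of 1.32 ± 0.07 (SE, adjusted p = 3.1e-25 by edgeR, 2.5-fold). It was higher in SM in 60 of 60 comparisons within an embryo. In the sagittal suture at E18.5, SM libraries 1 to 5 had 324, 351, 345, 361 and 341 CPM of Ogn and the PA front libraries of the same embryos had 104, 72.7, 82.9, 78.3 and 81.5. The smallest difference was in the frontal suture at E16.5, with 312, 314, 267, 327 and 280 CPM in SM and 179, 163, 159, 157 and 182 in the FR front. In both sutures all SM libraries lay above all OF libraries.

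Dcn, the SLRP that coats collagen fibrils in skin and tendon, differed by 1.10 ± 0.08 (adjusted p = 2.4e-18 by edgeR, 2.15-fold), an average over sutures that went opposite ways. In the sagittal suture at E16.5 it stood at 561, 578, 613, 638 and 559 CPM in SM and at 114, 69.1, 129, 86.8 and 95.8 in the PA front. Coronal E16.5 libraries held 105, 17.9, 21.8, 29.4 and 41.6 CPM in SM and 113, 170, 181, 49.9 and 102 in the PA front. Sagittal SM was clearly the higher region, whereas coronal SM was lower than its PA front in each of the 5 embryos. Dcn was higher in SM in 40 of 40 comparisons in the other sutures and in 1 of 20 in the coronal suture.

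Omd was the one member that was lower in SM, by −3.02 ± 0.11 (adjusted p = 1.7e-32 by edgeR, 8.13-fold). In the sagittal suture at E18.5, SM had 3.77, 2.47, 3.60, 1.37 and 2.48 CPM and the PA front 39.8, 68.7, 40.3, 64.7 and 57.8. For coronal E16.5 embryos, SM had 49.3, 6.46, 26.8, 25.5 and 46.2 CPM and the FR front 52.0, 49.7, 59.7, 38.6 and 101. The sagittal regions were more than 10 times apart, while the coronal regions overlapped at E16.5. The summed osteoblast markers were lower in SM by a median log2 ratio of −0.72 outside the coronal suture and −1.99 in it. This plain sum weighs abundant genes most and does not measure the share of osteoblasts. Averaged over sutures and ages, its member Col1a1 differed by −0.51, while Dmp1 (−7.67), Ibsp (−7.14) and Phex (−6.19) were much lower in SM. In the sagittal suture the sum overlapped between the regions at E16.5 (26899 to 30334 CPM in SM, 24587 to 33935 in the PA front). It did not at E18.5 (27622 to 37119 and 45538 to 62740). The part of osteoblasts in the Omd difference was not tested.

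Podn differed by 0.95 ± 0.08 (adjusted p = 1.2e-15 by edgeR, 1.94-fold). In the lambdoid suture at E16.5, SM had 50.3, 63.4, 61.7, 40.4 and 39.8 CPM and the PA front 7.93, 4.78, 11.0, 12.9 and 19.1. In the coronal suture at E18.5, SM had 32.5, 41.7, 39.8, 63.6 and 41.9 CPM and the PA front 67.0, 40.5, 72.8, 82.7 and 63.1. The lambdoid regions did not overlap, while in the coronal suture 4 of 5 PA libraries lay above 4 of 5 SM libraries.

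Kera was called higher in SM (adjusted p = 2.9e-10 by edgeR), and no fold is given because the OFs were mostly at 0. In the lambdoid suture at E16.5, SM had 4.13, 1.16, 0.453, 2.23 and 11.3 CPM while all 5 PA front libraries had no count. In the frontal suture at E16.5, SM had 0.972, 3.10, 3.77, 4.09 and 2.99 CPM and the FR front 0, 5.11, 0.832, 2.21 and 1.89. The frontal regions overlapped. The highest raw count of Kera in any library was 113.

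The remaining members that differed were Aspn (0.94 ± 0.06, adjusted p = 7.3e-21), Bgn (0.93 ± 0.05, adjusted p = 1.4e-24) and Fmod (0.77 ± 0.09, adjusted p = 3.0e-11), all by edgeR and higher in SM. Aspn, which competes with Dcn for collagen binding, was higher in SM in 60 of 60 comparisons within an embryo, and Bgn in 58 of 60. Fmod, which is abundant in tendon and cartilage, was higher in 40 of 40 outside the coronal suture and in 3 of 20 within it.

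Lum and Prelp showed no difference on average. Lum, a keratan sulfate SLRP that is broadly made in connective tissue, differed by 0.01 ± 0.04 (95% interval −0.07 to 0.10). Without TMM scaling, where the median of all genes moved from 0.05 to 0.16, its difference was 0.12 (adjusted p = 0.0019 by edgeR). Prelp, an SLRP with a heparin-binding end, differed by −0.02 ± 0.09 (−0.20 to 0.16). Behind both averages stood opposite differences: Lum was lower in SM in 20 of 20 coronal comparisons and higher in 26 of 40 others, and Prelp lower in 18 of 20 and higher in 33 of 40.

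**Figure D2:**
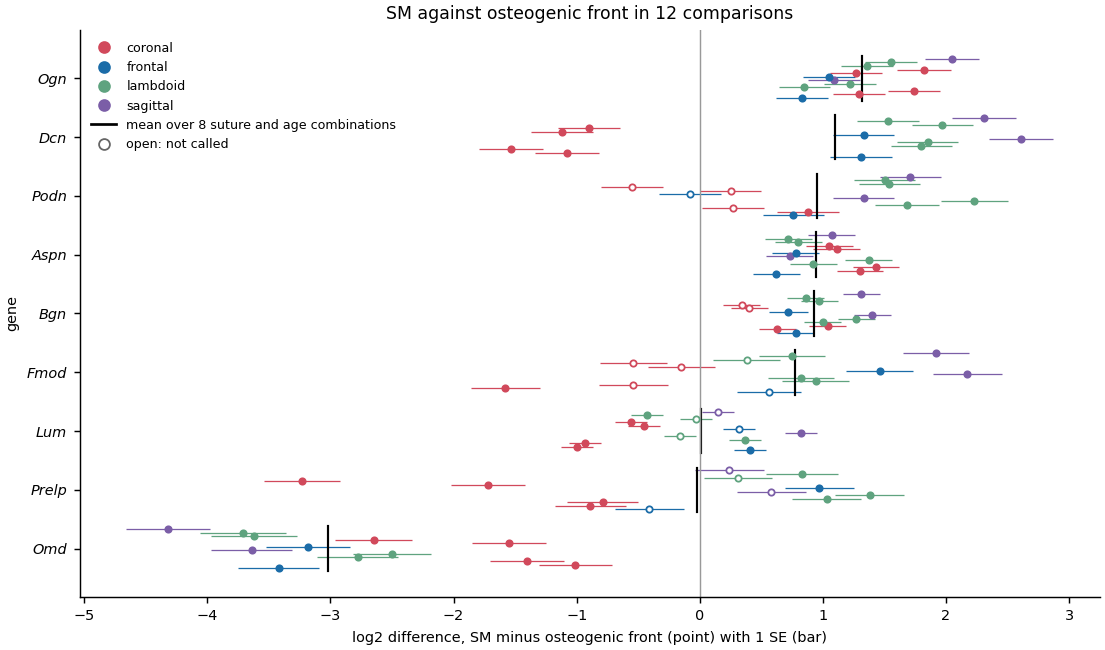
Log2 difference of SM minus OF for 9 SLRP genes in the coronal suture and in the other 3 sutures, by front and age, with the mean of all sutures (edgeR estimates, Kera left out). Ogn and Aspn lie above 0 and Omd below 0 in every comparison, while Dcn runs from −1.53 to 2.61.

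Each of the 12 pairs of SM and 1 front was also tested alone, in each of which the share of all genes called is the background. In the frontal suture it was 8.8% at E16.5 and 11.3% at E18.5. Against the coronal FR front it was 27.2% and 3.48%, and against the coronal PA front 33.2% and 17.8%, in the same order of ages. Against the lambdoid IP front it was 12% and 20.3%, against the lambdoid PA front 24% and 24.9%, and in the sagittal suture 18.3% and 26.1%. Ogn and Aspn were higher in SM in 12 of 12 comparisons and Omd was lower in 12 of 12. The log2 differences ran from 0.83 to 2.05 for Ogn, 0.62 to 1.43 for Aspn and −4.32 to −1.01 for Omd. Bgn was higher in SM in 10 and not called in 2, both in the coronal suture at E18.5 (0.40 against the FR and 0.34 against the PA front).

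Podn was higher in SM in 8 of the 12, Kera in 6 and Fmod in 6, and among these only Fmod had a comparison called lower, −1.58 against the coronal FR front at E16.5. A Kera call, against the coronal PA front at E16.5, rested on 1 SM library at 1.57 CPM, with the other 4 SM and all 5 PA libraries at 0. Dcn was called in all 12, higher in SM in 8 and lower in 4, and the 4 were the coronal ones (−1.53 to −0.90). Lum was lower in SM in 5, the 4 coronal comparisons and the lambdoid PA front at E18.5 (−0.43). It was higher in 3, the frontal FR front (0.41), the lambdoid IP front (0.37) and the sagittal PA front (0.82), all at E16.5. Prelp was higher in SM in 4 and lower in 4, again the coronal ones.

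**Figure D3:**
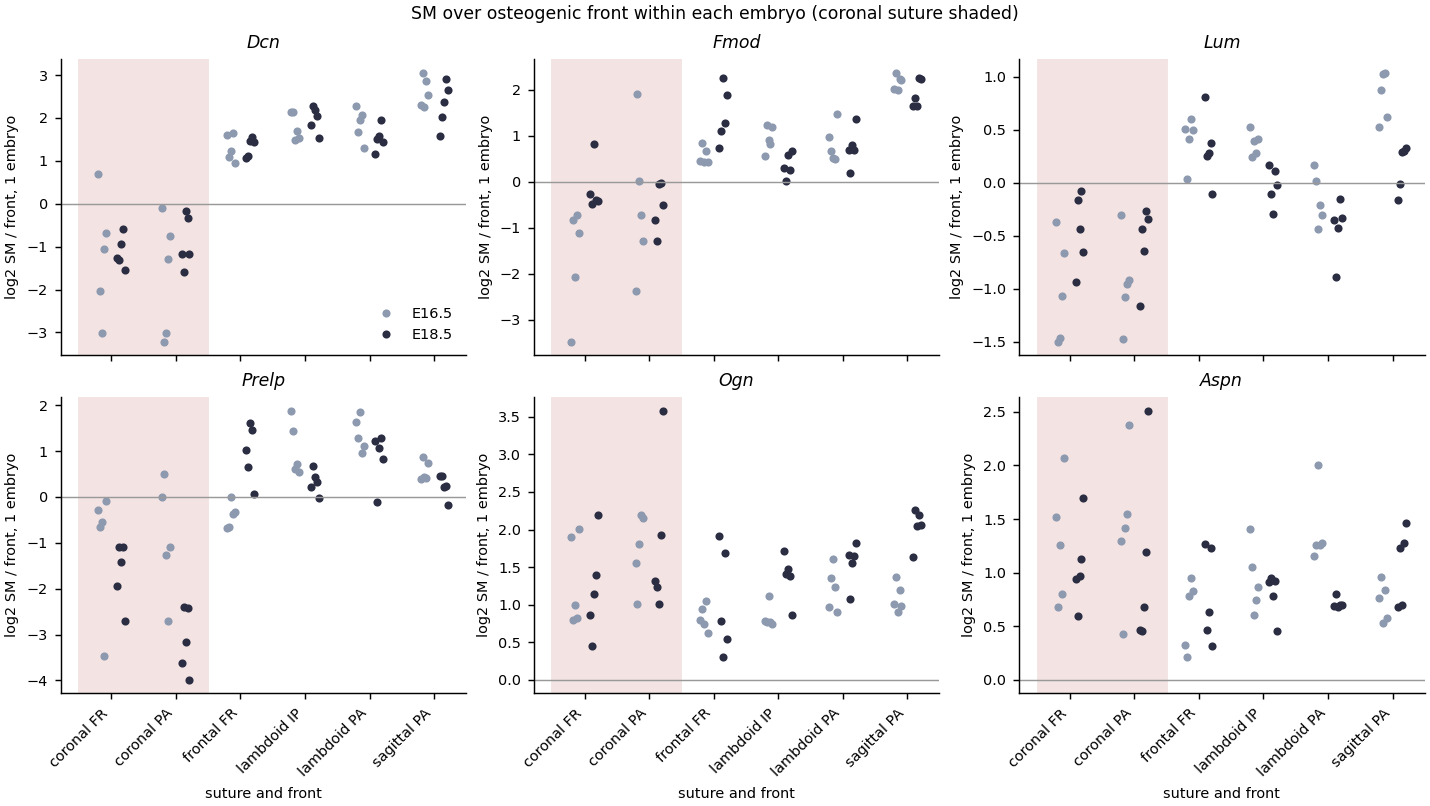
Log2 ratio of SM over each front of the same embryo for Dcn, Fmod, Lum, Prelp, Ogn and Aspn, by suture, front and age, with the coronal suture shaded. Points are embryos. Dcn is above 0 in 40 of 40 points outside the coronal suture and in 1 of 20 within it.

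The direct test compared the coronal SM minus OF difference with the mean of the other 3 sutures. It called 8 of the 9 members that gave a finite estimate, 6 lower and 2 higher in the coronal suture, against 20% of all genes tested (7.98% lower and 12% higher). Dcn had the largest gap, −3.01 ± 0.20 on the log2 scale (adjusted p = 1.6e-18 by edgeR). Prelp (−2.18 ± 0.22, adjusted p = 1.3e-11), Fmod (−1.96 ± 0.21, adjusted p = 4.0e-11) and Lum (−1.0 ± 0.10, adjusted p = 2.2e-12) followed. Podn (−0.99 ± 0.18, adjusted p = 4.8e-05) and Bgn (−0.44 ± 0.11, adjusted p = 0.0025) differed less.

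Omd went the other way, by 1.82 ± 0.22 (adjusted p = 2.2e-09 by edgeR), since its SM and OF levels lay closer together in the coronal suture. Aspn was called at 0.37 ± 0.13 (adjusted p = 0.044), a call lost without the 3 libraries of coronal E18.5 embryo 2 (0.22, adjusted p = 0.23) and in 7 other alternatives. Ogn gave 0.28 ± 0.15, with a 95% interval of −0.02 to 0.58. Over 16 settings the gap ran from −3.40 to −2.81 for Dcn, −2.40 to −2.0 for Prelp, −2.11 to −1.80 for Fmod and −1.16 to −0.86 for Lum.

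Some of these genes also had low CPM in coronal SM itself. Dcn had a median of 80.8 CPM in the 10 coronal SM libraries, against 1326 in frontal, 487 in lambdoid and 596 in sagittal SM. Fmod had medians of 60.9 against 454, 195 and 413 CPM, and Prelp 5.55 against 86.8, 71.5 and 36.4. Lum did not follow, with 697 CPM in coronal SM against 920, 496 and 686, nor did Bgn, with 3465 against 3464, 1806 and 3478. In the coronal OFs Lum was higher than elsewhere, at a median of 998 CPM against 484 to 658. Bgn was higher there as well, at 2271 against 852 to 1894. These levels come from the first libraries and mostly from different litters, and were not tested. A second library of 18 coronal SM and OF samples gave lower CPM, without TMM factors, for Bgn and Lum. The log2 ratio of second over first had a median of −0.58 for Bgn and −0.35 for Lum. It was 0.01 for Dcn, 0.19 for Fmod and −0.26 for Prelp.

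Marker genes of the suture and of the tissues around it also differed between sutures. The 12 SM markers summed to 3896 to 5562 CPM in coronal SM and to 1570 to 3777 in other SM. Several of them, among them Hhip, Erg, Sox6 and Cd34, are markers that the paper took from coronal SM cells. The higher sum in coronal SM is therefore not independent of how the list was chosen. The 13 osteoblast markers summed to 7022 to 11580 and 10482 to 37119 CPM. The 11 dura mater markers summed to more in SM than in the OF in 40 of 40 comparisons outside the coronal suture and in 7 of 20 within it (median log2 ratios 0.53 and −0.19). Their sum was 131 to 349 CPM in coronal SM and 162 to 823 in other SM, and no marker was at 0 throughout. The 6 ectocranial mesenchyme markers summed to 226 to 704 CPM in coronal SM and 872 to 3284 in other SM, and were higher in SM in 13 of 20 and 37 of 40 comparisons.

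The 7 hypodermis markers tested summed to 13.8 to 67.9 and 22.8 to 380 CPM, with Clec3b at 0 in all coronal SM libraries. The 10 chondrocyte markers tested summed to 98.5 to 345 in coronal and 205 to 601 in other SM, with Matn1 at 0 in coronal SM. Mast cell markers, 5 tested, summed to 1.55 to 21.8 and 53.6 to 452 CPM, with Mcpt4 at 0 in coronal SM. Mitochondrial genes took a median of 25.8% of the counts in coronal SM and 18.3% in other SM. The 7 skeletal muscle markers tested summed to 0.299 to 3.93 CPM in coronal and 6.75 to 262 in other SM, with median log2 ratios of SM over OF of 0.27 and 2.5. The 10 markers of proliferating cells were higher in SM in 10 of 20 coronal and in 0 of 40 other comparisons. The part of these cells and of this share in the SLRP differences was not tested.

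A coronal embryo stood apart in several members: embryo 2 at E18.5 had the highest osteoblast marker sum of its group in both OFs (37465 CPM against 15292 to 18686 in the FR, 59944 against 31622 to 36538 in the PA front). Without it the coronal gap was −2.98 for Dcn, −2.08 for Prelp, −1.96 for Fmod and −1.01 for Lum. Dcn against the coronal PA front at E18.5 then lost its call (−0.78, adjusted p = 0.056 by edgeR), as did Lum against the FR front (−0.39, adjusted p = 0.22). Without coronal E16.5 embryo 5, whose SM had 0.484 CPM of Prelp against 12.2 to 18.8 in the others, Prelp was no longer called against the FR (−0.42, adjusted p = 0.24) or PA front (−0.52, adjusted p = 0.13) at that age, nor Podn against the FR front (0.59, adjusted p = 0.081).

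The 2 fronts of a suture were compared next. Between the coronal FR and PA fronts, 4 of 9 members with a finite estimate differed (12.4% of all genes). Ogn was higher in the FR front by 0.50 ± 0.15 (adjusted p = 0.018 by edgeR), and Omd (−0.74 ± 0.20, adjusted p = 0.011), Podn (−0.71 ± 0.18, adjusted p = 0.005) and Prelp (−0.70 ± 0.20, adjusted p = 0.015) were lower in it. Podn kept its call in every alternative run. Ogn lost its call without coronal E16.5 embryo 5 (0.42, adjusted p = 0.051) and without the embryos numbered 3, Omd without those numbered 3 or 4, and Prelp without those numbered 1, 3 or 4 and with the second coronal libraries. Between the lambdoid IP and PA fronts only Lum differed, −0.47 ± 0.09 (adjusted p = 0.0018 by edgeR), where 0.997% of all genes were called, and this call was lost without the embryos numbered 4.

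The next question was whether the levels changed with age. In SM, averaged over the 4 sutures, 3 members were higher and 2 lower at E18.5 than at E16.5, where 11.1% of all genes were called. Aspn had the largest rise, 0.62 ± 0.09 (adjusted p = 1.7e-07 by edgeR, 1.53-fold), followed by Podn (0.61 ± 0.13, adjusted p = 5.3e-04) and Bgn (0.37 ± 0.09, adjusted p = 0.0016). Prelp fell by 0.60 (SE 0.17, adjusted p = 0.01) and Omd fell by 0.52 (SE 0.18, adjusted p = 0.042). Both falls were lost under limma voom, with the second coronal libraries and without the embryos numbered 1, and that of Omd also without those numbered 2 or 4 and without coronal E16.5 embryo 5. Dcn, not called otherwise (0.36, adjusted p = 0.075 by edgeR), was called higher under limma voom and without the embryos numbered 1, and Fmod without those numbered 2.

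Aspn in frontal SM had 391, 260, 323, 506 and 383 CPM in the E16.5 and 628, 818, 954, 730 and 677 in the E18.5 embryos, with no overlap. Aspn in coronal SM had 647, 403, 626, 802 and 702 CPM in the younger and 814, 1349, 707, 709 and 689 in the older embryos, which overlapped. Podn in lambdoid SM had 50.3, 63.4, 61.7, 40.4 and 39.8 CPM in the younger and 97.4, 126, 155, 113 and 106 in the older embryos. It did not overlap there, whereas in coronal SM Podn had 33.9, 50.8, 51.5, 74.3 and 60.2 CPM in the younger and 32.5, 41.7, 39.8, 63.6 and 41.9 in the older embryos.

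Prelp went both ways. In coronal SM it had 18.4, 18.8, 12.5, 12.2 and 0.484 CPM in the younger and 3.70, 2.19, 3.31, 7.28 and 3.83 in the older embryos. In frontal SM it had 61.1, 60.9, 45.2, 59.3 and 55.8 CPM in the younger and 122, 156, 156, 112 and 136 in the older embryos. Prelp thus fell in coronal SM (−1.63, adjusted p = 3.0e-04 by edgeR, 27.1% of all genes called) and in lambdoid SM (−1.35, adjusted p = 0.0098, 2.96%). It rose in frontal SM (1.27, adjusted p = 0.021, 2.33%) and in the coronal PA front (1.00, adjusted p = 0.026, 20.6%), a call lost without coronal E18.5 embryo 2 (0.93, adjusted p = 0.056).

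In the OFs, with the fronts of an embryo summed, 5 members were higher at E18.5 and none was lower, where 10.9% of all genes were called. Podn rose most, by 1.06 ± 0.12 (adjusted p = 1.9e-10 by edgeR, 2.08-fold), and was called as well without the embryos numbered 5. Among these was a frontal E18.5 FR library that stood apart, with 296 CPM of Podn (others 59.2 to 114), 6027 of Bgn (1646 to 3708), 89.7 of Omd (14.2 to 32.7) and a mitochondrial share of 52.4% (22.6% to 35.6%). In the frontal FR front alone, Bgn lost its call without these embryos (0.65, adjusted p = 0.056 by edgeR). Aspn (0.67 ± 0.08, adjusted p = 1.0e-09) and Bgn (0.62 ± 0.09, adjusted p = 1.3e-07) rose as well. Dcn (0.41 ± 0.13, adjusted p = 0.023) and Lum (0.23 ± 0.08, adjusted p = 0.042) passed the test narrowly. The call of Dcn was lost without the embryos numbered 1, 2 or 4. That of Lum was lost without the embryos of any 1 number, without coronal E18.5 embryo 2, with no filter, with edgeR's own filter and with the second coronal libraries.

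The regions were also tested alone. The share of all genes called was 27.1% in SM, 24.4% in the FR front and 20.6% in the PA front of the coronal suture. It was 2.33% in SM and 4.34% in the FR front of the frontal suture, and 2.96% in SM, 0.288% in the IP front and 0.986% in the PA front of the lambdoid suture. Aspn and Bgn were higher at E18.5 in 5 of 10 regions each and Podn in 4. Dcn rose in coronal SM (1.16, adjusted p = 7.8e-04 by edgeR) and the coronal FR front (1.24, adjusted p = 4.2e-04). Omd fell in coronal SM (−1.74, adjusted p = 2.4e-05) and the coronal FR front (−1.06, adjusted p = 0.0086). Fmod rose in coronal SM (0.78, adjusted p = 0.02) and the coronal PA front (0.87, adjusted p = 0.013), and Ogn in frontal SM (1.01, adjusted p = 0.017) and the frontal FR front (0.83, adjusted p = 0.048). Each of these 4 calls was lost in some of the sets with embryos left out.

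Other measures moved with age in the same coronal libraries. The mitochondrial share was 25.7% to 51.0% in SM, 30.6% to 52.4% in the FR and 34.2% to 42.7% in the PA front at E16.5, against 20.8% to 25.95%, 21.5% to 25.3% and 21.6% to 27.6% at E18.5. The osteoblast marker sum of the coronal FR front had medians of 46144 and 16844 CPM at the earlier and later age, and that of coronal SM 9536 and 10040. The chondrocyte marker sum of coronal SM ran from 98.5 to 141 CPM and then from 253 to 345, and the dura mater marker sum from 131 to 188 and then from 221 to 349. Macrophage markers there summed to 91.0 to 125 and then to 213 to 346, and periosteum markers to 6359 to 7935 and then to 9606 to 12538. In the coronal FR front, periosteum markers summed to 6187 to 7803 and then to 8639 to 13634. Pericyte and smooth muscle markers there summed to 157 to 526 and then to 682 to 1274. In frontal SM the ectocranial mesenchyme marker sum ran from 1169 to 2016 and then from 2448 to 3284 CPM. The mast cell marker sum there ran from 57.8 to 143 and then from 295 to 452. In lambdoid SM the dura mater marker sum ran from 267 to 576 and then from 167 to 264. The part of these measures in the age differences was not tested. In the sagittal suture edgeR called none of the 10 members in SM or in the PA front, where 3 each had an unadjusted p under 0.05 and 1.12% and 1.6% of all genes were called.

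**Figure D4:**
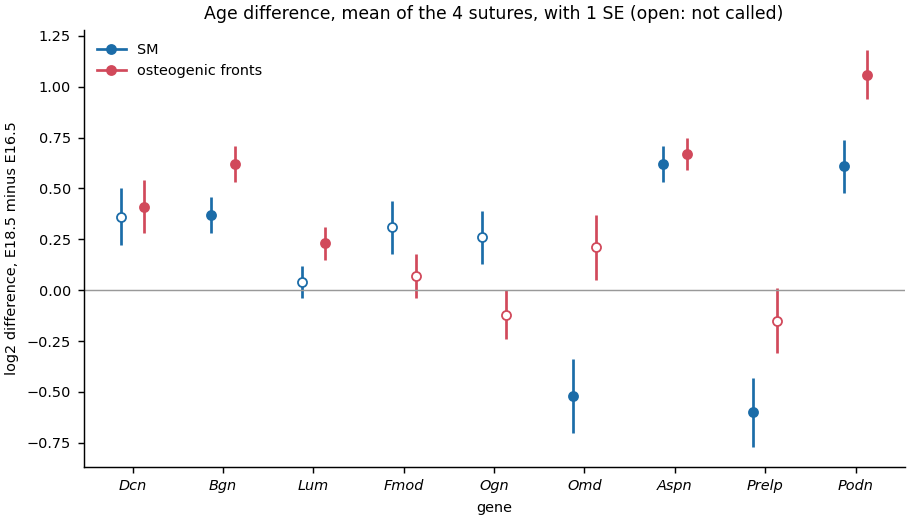
Log2 difference of E18.5 minus E16.5 in SM and in the OFs, mean of the 4 sutures, for 9 SLRP genes (edgeR, bars 1 SE, Kera left out). Filled points passed the test: Aspn, Podn and Bgn lie above 0 in both regions.

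Whether the SM minus OF difference itself changed with age was tested for each member. None of 10 was called by edgeR (adjusted p 0.18 to 1, 4 members with an unadjusted p under 0.05), and DESeq2 and limma voom called 0, where 0.870% of all genes were called. The largest estimates were −0.59 ± 0.21 for Omd (95% interval −1.0 to −0.18), 0.41 ± 0.14 for Ogn (0.14 to 0.68) and −0.40 ± 0.16 for Podn (−0.73 to −0.08). With no filter on low counts, Bgn, Ogn and Omd were called.

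Partners of the SLRPs were followed in lists chosen beside the members. Of 7 other leucine-rich proteoglycan family genes tested, Optc (1.23) and Ecm2 (0.70) were higher in SM and Chad, a cartilage protein, was lower (−2.25), with 4 not called. Ecm2 gained a further 1.64 in the coronal suture (adjusted p = 2.6e-11 by edgeR). Of 15 collagens and fibril partners, 10 were higher in SM and 5 lower, where 54.9% of all genes were called in either direction. Col14a1, a collagen at the fibril surface (2.25), Thbs2 (1.19) and Dpt (1.18), which binds Dcn, were furthest above the OFs, and Col1a1 and Col1a2 (both −0.51), the chains of type I collagen, and Col6a3 (−0.33) were lower.

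In the coronal suture against the others, 12 of these 15 were lower and none higher, where 7.98% of all genes were lower and 12% higher. The lower ones included Col14a1 by −3.08 (adjusted p = 1.4e-13 by edgeR), Col1a1 by −1.49 (adjusted p = 2.0e-15) and Dpt by −1.47 (adjusted p = 0.002). In SM 13 of the 15 were higher at E18.5 (11.1% of all genes called in either direction), and in the OFs 10 (10.9%). Of these, Thbs2 was higher by 0.40 in SM and 0.43 in the OFs.

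Of 27 enzymes that build chondroitin and dermatan sulfate chains, 6 were higher in SM, 10 lower and 11 not called, a share near the 54.9% of all genes called. Csgalnact1, Chst7 and Chsy3 led the first and Chst13, Chst11 (−2.03) and Chst15 (−1.95), which sulfate chondroitin, the second. Of 6 keratan sulfate enzymes, B4galt4, Chst1 and Fut8 were higher in SM and B3gnt7 and B4galt1 lower. Of 15 proteases and signalling partners, 9 were higher in SM and 3 lower, beside 27.5% and 27.4% of all genes. Tlr4 (1.45), which Bgn and Dcn are known to bind, Egfr (1.43), a receptor for Dcn, and Mmp2 (1.14) were the highest, and Tgfb1 (−2.24), Mmp13 (−1.76) and Ccn4 (−0.65) the lowest.

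The single-cell matrices gave the members' levels by class of cells in the coronal suture. After filtering, 466 and 337 cells of the E16.5 libraries and 2412 and 1577 of the E18.5 libraries remained. The 10 members took no part in clustering or naming, and levels are the UMI sums of a class in CPM, for library 1 and then library 2. The ages used different 10x chemistries, so age and chemistry cannot be told apart. There were 2 libraries per age, so no test was made. Few barcodes were shared, 1 between the E16.5 and 5 between the E18.5 libraries.

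Dcn was highest in hypodermis-like cells at E16.5 (7602 CPM, 108 of 110 cells from library 1). It followed in ectocranial mesenchyme-like (2457 and 1316) and dura mater-like cells (2330 and 1458). At E18.5, dura mater-like cells had 3026 and 1984 CPM and osteoblast-like cells 599 and 515. Suture mesenchyme-like cells, which fell into a cluster of mostly library 2 and another of library 1 alone, had 443 and 440. Macrophage-like cells, which should lack Dcn, showed 139 and 84.1 CPM at E18.5, taken here as the background of free RNA. Dcn thus stood above the background in suture mesenchyme-like cells and below dura mater-like cells in both libraries. No E16.5 cluster met the criteria for a suture mesenchyme-like name. An unnamed cluster of 42 cells, 41 of them from library 2, was led by Sox6, Ptch1, Runx2 and Hhip. Its leading genes held 3 osteoblast and 2 SM markers, and the members' levels in it are not given here. The E16.5 levels are given without a macrophage-like background.

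Omd was highest in osteoblast-like cells, at 132 and 193 CPM at E16.5 (15 and 19 cells) and at 126 and 155 at E18.5. Within that class at E18.5 the main cluster had 146 and 168 CPM. A cluster led by Dmp1, Phex and Sost, genes of osteocytes, had 6.95 and 4.22 (17 and 27 cells). Beside it stood a background of 17.9 and 9.89 in macrophage-like cells. These few cells gave few UMIs of Omd, so the cluster is not placed above or below that background. Suture mesenchyme-like cells had 14.8 and 24.8 CPM of Omd, below that background in library 1 and above it in library 2. Lum was also high in osteoblast-like cells (1323 and 648 at E16.5, 683 and 1129 at E18.5), and was higher still in an unnamed E18.5 cluster led by Mmp13, Cp and Gpx3 (1738 and 1826), beside 132 and 176 in macrophage-like cells at that age.

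Aspn was highest in suture mesenchyme-like cells at E18.5, 1779 and 1503 CPM, and stood at 105 and 144 in osteoblast-like cells, close to the 102 and 111 of macrophage-like cells. Ogn was highest in dura mater-like cells at E18.5 (682 and 780), with 260 and 265 in suture mesenchyme-like and 42.7 and 42.7 in osteoblast-like cells, beside a background of 48.2 and 24.7 in macrophage-like cells. Bgn was spread widely, from 2627 and 2116 CPM in ectocranial mesenchyme-like cells to 304 and 270 in macrophage-like cells at E18.5. Suture mesenchyme-like cells had 2365 and 1528 CPM of Bgn and osteoblast-like cells 1887 and 1348.

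Fmod and Prelp were highest among named classes in chondrocyte-like cells, with 356 and 653 CPM of Fmod and 114 and 195 of Prelp at E18.5. Suture mesenchyme-like cells had 69.9 and 150 CPM of Fmod and 10.6 and 11.9 of Prelp, against 27.5 and 17.3 of Fmod and 8.13 and 0 of Prelp in macrophage-like cells. Podn was low, with 53.5 and 41.7 CPM in ectocranial mesenchyme-like cells at E18.5 and 16.1 and 8.5 in suture mesenchyme-like cells, beside 3.65 and 4.95 in macrophage-like cells. Kera stayed at or below 13.1 CPM in every cluster.

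**Figure D5:**
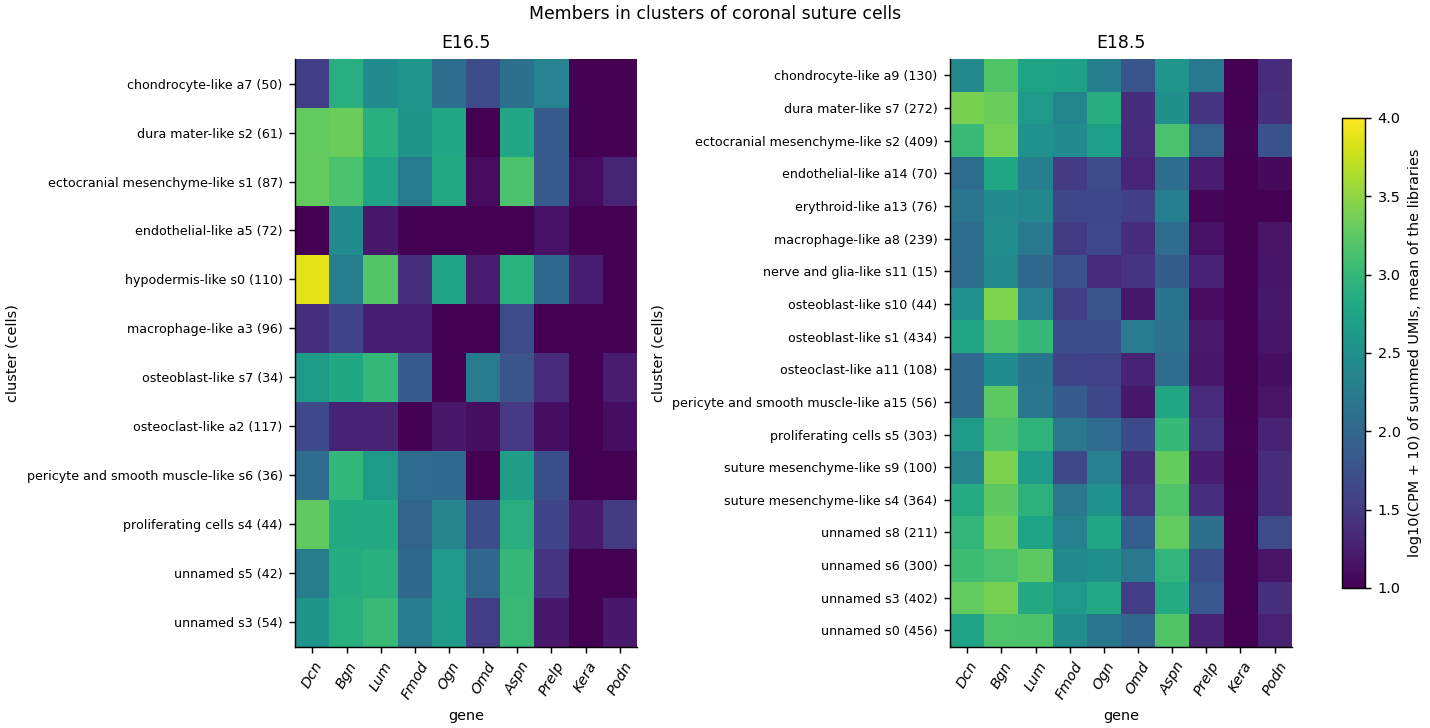
UMI sums of the SLRP genes by cluster of coronal suture cells, as CPM on a log colour scale, averaged over the libraries of an age (left E16.5, right E18.5). Among named classes at E18.5, Aspn was highest in suture mesenchyme-like cells, Dcn and Ogn in dura mater-like cells and Omd in osteoblast-like cells.

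The genes whose levels ran most like those of each member over the 100 libraries were taken by Pearson's r of log2 CPM, leaving members out. All libraries share the contrast of bone and mesenchyme and the litters, so these are descriptions. Omd ran with Raph1, Mef2c and Panx3 (r 0.94), Ogn with Nfia, 3110039I08Rik and Maf (0.90) and Bgn with Col3a1 (0.88), the main chain of type III collagen. Dcn ran with Aldh1a1 (0.85) and, like Fmod (0.81), with Epyc (0.82), another SLRP family gene. Aspn ran with Sntb2, Dkk3 and P4ha3 (0.86), Podn with Smoc2 (0.76), Lum with Lox (0.76), a collagen cross-linking enzyme, and Prelp with Col6a6 and Osr2 (0.75).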

How the data were processed

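Gene counts were deposited by the authors as whole read pairs per gene and library. Per the labels and file headers, reads were trimmed with cutadapt, aligned to mm10 with STAR 2.5.3a and counted without strand by featureCounts 1.6.4 on GENCODE release 22. The droplet matrices hold deposited UMI counts. A deposited table of the authors' own log2 ratios between regions was not used.

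The members and lists were chosen with earlier results of these data known. A gene entered the fits where more than 10% of the 100 first libraries reached 1 CPM. Library sizes were scaled by TMM, and edgeR 4.0.16 (R 4.3.3) fitted quasi-likelihood models, two-sided, with Benjamini-Hochberg adjustment over all genes tested and a threshold of 0.05. The trend of the dispersion came from 1 mean per group, and the quasi-likelihood spread from the design tested. SM and OF models had the embryo (the litter id in the labels) as a block. Over the 60 pairs of SM and OF from 1 embryo, deviations from the group means correlated at −0.16 to 0.26 (median 0.05), against a median of −0.01 for other pairs of the same groups. Ages were compared with no block, and the OFs of an embryo were summed first. Where a suture has 2 fronts, their differences were averaged before sutures were. SEs were taken from the log2 difference and the test statistic, and 95% intervals are 1.96 SEs. No pair of replicates agreed within sampling noise. P-values measure the spread between embryos. Members that pass are named in single comparisons. Values of every library are given for the members with the 5 largest SM minus OF and the 3 largest SM age differences among those called, in the suture with the largest difference in the direction of the mean and the one with the smallest or most opposite. Of each list, up to 3 called genes per direction with the largest difference are named.

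Cells with over 800 detected genes and within 3 deviations on counts and mitochondrial share were clustered with scanpy 1.11.5 after centring each library (13 or 15 principal components, resolution 0.8). The members, haemoglobin, mitochondrial and Xist genes were left out. A class name needed 3 markers among 30 leading genes. No doublet caller was run. Cell types are rebuilt, not the authors'. The E18.5 matrices carry the code E16 in their names and were assigned by their labels. Alternatives were DESeq2 1.42.0, limma voom 3.58.1, other scalings and filters, other libraries and embryos left out, and no embryo block. The fits were tested on simulated data for the mean SM minus OF difference, 1 single SM minus OF comparison and the mean age difference of SM. The single comparison recovered 0, 5, 23 and 47 of 50 genes changed 1.5-fold, 2-fold, 3-fold and 4-fold, among 6000 genes run. In the libraries themselves, Aspn was called in 12 of 12 single comparisons, at log2 differences of 0.62 to 1.43. Lum, at −1.00 to 0.82, was not called in 4 of 12. Whether the recovered counts hold for the members was not tested. The dura mater, chondrocyte and other marker sums are plain sums of CPM.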

Additional observations from a re-analysis of the deposited data

Results flagged for a closer look

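Among 200 groups of 5 libraries (10 genes in 20 groups), 22 held 1 library far from the other 4 by Dixon's test at the 95% level on log2(CPM + 0.5), where chance flags about 1 in 20 groups. In the coronal suture at E18.5 embryo 2 was the odd library in 4 of them: Dcn in the FR front (310 CPM, others 179 to 208), Lum in the FR front (1503, others 835 to 966), Ogn in the PA front (39.9, others 81.2 to 93.9) and Aspn in SM (1349, others 689 to 814). At the same age, Fmod in the PA front was high in embryo 4 (172, others 82.8 to 101) and Prelp there was low in embryo 1 (22.1, others 38.2 to 46.0). At E16.5, Prelp in coronal SM was low in embryo 5 (0.484, others 12.2 to 18.8).

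In the lambdoid suture, Dcn in SM at E16.5 was high in embryo 5 (970 CPM, others 424 to 499) and Aspn in the PA front at E16.5 low in embryo 2 (65.8, others 114 to 140). Ogn in the PA front at E18.5 was high in embryo 4 (98.6, others 75.8 to 81.2) and Podn in the IP front at E18.5 high in embryo 2 (54.7, others 34.8 to 39.5). Omd was high in the IP front at E16.5 in embryo 2 (29.5, others 22.7 to 24) and in SM at E18.5 in embryo 3 (4.50, others 1.59 to 1.95). In frontal SM at E16.5, Omd was low in embryo 5 (1.21, others 3.11 to 4.33) and Podn high in embryo 1 (65.5, others 51.2 to 55.0).

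The other 7 were Kera, where the libraries hold few counts. It stood at 1.57 CPM in coronal SM at E16.5 in embryo 1 (others 0), at 2.09 in coronal SM at E18.5 in embryo 5 (others 0 to 0.234) and at 0.164 in the coronal FR front at E18.5 in embryo 5 (others 0). In frontal SM at E16.5 it stood at 0.972 in embryo 1 (others 2.99 to 4.09) and in the frontal FR front at E18.5 at 0.679 in embryo 4 (others 0 to 0.114). In the sagittal PA front it stood at 0.236 at E16.5 in embryo 2 (others 0 to 0.0528) and at 0.306 at E18.5 in embryo 4 (others 0 to 0.0713).

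The SM minus OF difference of 8 members differed between the coronal suture and the others by edgeR's test of that difference: Dcn (−3.01), Prelp (−2.18), Fmod (−1.96), Lum (−1.0), Podn (−0.99), Bgn (−0.44), Aspn (0.37) and Omd (1.82), all on the log2 scale. No cause was tested.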

How the results depend on the processing

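Differences averaged over sutures kept their direction and their side of the threshold in 1243 of 1295 gene and alternative pairs, and single comparisons in 3107 of 3313. Members called between SM and OFs numbered 8, with a range of 7 to 8 when embryos were left out (Kera could not be fitted without those numbered 1) and 9 without TMM, which added Lum. Without TMM 62.1% of the calls over all genes were higher in SM against 50.1%. That share went from 60.1% to 73.6% for the coronal suture against the others, from 47.9% to 77.7% between the coronal fronts and from 45.7% to 84.1% between the lambdoid fronts, and with median-ratio factors to 60% and 59.3% for the fronts.

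Without the embryo block, the count was 8 members and 10946 genes between SM and OFs (10848 with it), 8 members for the coronal suture against the others and 118 genes between the lambdoid fronts (197 with it), and the block changed no other member count. No paired analysis was possible for the ages because their replicate numbers name different embryos.

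For the age difference of SM minus OF, the members called were 3 with no filter against 0, and the genes called were 347 with no filter, 407 by DESeq2, 113 by limma voom and 71 to 245 with embryos left out, against 172 (lowest without the embryos numbered 4). Front against front, 8 members were called with no filter and 2 to 5 with embryos left out, against 5, and 2 without the embryos numbered 3 or 4. The genes called between the coronal fronts were 1516 to 2611 with embryos left out, against 2454 (lowest without those numbered 3). Between the lambdoid fronts they were 461 with no filter, 318 by DESeq2, 122 by limma voom and 46 to 345 with embryos left out (lowest without those numbered 2). For age in SM, 3 members were called with the second coronal libraries and 4 to 5 with embryos left out, against 5, and 1375 to 2409 genes against 2187 (lowest without those numbered 1). For age in the OFs, 3 to 5 members were called with embryos left out, against 5, and 3 without those numbered 1, 2 or 4. For the coronal suture against the others, 7 to 8 members and 3001 to 4558 genes were called with embryos left out.

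Lum in the coronal FR front turned from −0.16 to 0.31 between the ages without TMM (adjusted p = 0.04 by edgeR), and Kera there turned from 2.34 to −5.38 with the second coronal libraries (adjusted p = 0.013). The cause was not tested. In single cells, the named class with the highest level was as in the text for 14 to 17 of 18 gene and age pairs (9 members, without Kera) under other settings, of which uncentred libraries were added after seeing the data, as was leaving out single coronal embryos. Low counts limit Kera, which had none in 41 libraries.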

Other observations

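Complete sutures at E18.5 were also sequenced, in 4 libraries per suture whose titles call them normalization controls. The labels tell them apart only by a title code (C, IF, L or S) that they do not explain, so their values are ranges with no test. Levels also moved with the code within a suture. In the coronal, frontal, lambdoid and sagittal sutures, Bgn was lowest with code L (1578, 1398, 1311 and 1949 CPM). It was highest with code S (2362, 1980, 2208 and 3167). Dcn stood at 421 to 539 CPM in the coronal, 333 to 415 in the lambdoid, 913 to 1182 in the sagittal and 1190 to 1491 in the frontal suture. The coronal values lay above all 30 laser-captured coronal libraries, whose highest was 310. The scales differ, since the complete sutures are in CPM without TMM factors and the 310 is with them. Omd was highest in the complete coronal suture (52.4 to 69.3) and lowest in the frontal (11.8 to 19.8) and sagittal ones (12.5 to 21.4). Fmod ran from 194 to 251 in the coronal to 666 to 836 in the sagittal suture, Prelp from 33.4 to 48.8 in the coronal to 98.0 to 139 in the lambdoid suture. Lum differed little, with 578 to 917 over all 16 libraries.

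For 18 coronal samples a second library was deposited, and how it was made is not given in the sources used here. The log2 ratio of second over first had a median of −1.07 for Podn (−2.31 to 0.01), −0.58 for Bgn (−1.05 to −0.02), −0.39 for Omd and −0.35 for Lum, and lay near 0 for Dcn (0.01, −0.38 to 0.97) and Aspn (−0.11). The widest ranges were −2.59 to 0.82 for Prelp and −0.44 to 2.80 for Fmod.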
